A study of Mus musculus with 2 samples.

Results

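A set of 101 genes was at least 2.83-fold higher after IL-4 in mouse peritoneal macrophages, with symbols of familiar alternative (M2) activation families left out. They were taken from 15623 genes listed in the RNA-sequencing tables of 1 nontreated (NT) library and 1 library made after 6 h with IL-4. A member had an expected count (the RSEM estimate of its reads) of at least 50 in IL-4 and a log2 ratio of IL-4 over NT of at least 1.5, with 0.5 count added and each library scaled to its total. Genes of RNA without a protein product were set aside, as were symbols beginning with the letters of familiar families such as arginases, chitinase-like proteins, chemokines, interleukins, solute carriers, CD antigens, C-type lectins and MHC genes. Of 154 genes past both limits, 49 were set aside by symbol and 4 as noncoding transcripts. Those 154 were 1.55% of the 9925 genes with at least 50 counts in a library, and 0.836% had a log2 ratio of -1.5 or less. The members were thus chosen by the measured counts and ratio, so their ratios are a description and carry no test.

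Both libraries came from macrophages that wild-type C57BL/6 mice had recruited into the peritoneum after thioglycollate, an irritant that draws monocytes into the cavity. The cells were purified by adherence and held in low serum before IL-4 was added, and no allele or transgene separates the groups. A tissue field of the labels gives bone marrow, while the source field gives peritoneal macrophages. Neither the number of mice behind a library nor pooling is given in the labels. With 1 library per group, IL-4 and library cannot be told apart, no spread between animals could be measured, and no p-value is given. Intervals are exact 95% Clopper-Pearson intervals of counting error alone, and PCR copies of a molecule make them too narrow.

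The tables held 11035641 expected counts in NT and 11250099 in IL-4, so that 3 counts, the floor used here, were 0.272 and 0.267 CPM (counts scaled to a library total of 1000000). All 9 macrophage markers were listed, with summed levels of 17000 CPM in NT and 17400 CPM in IL-4. T cell markers summed to 1.88 CPM in each library, and fibroblast markers to 153 CPM in NT and 120 CPM in IL-4. Markers of B, NK, mast and mesothelial cells, neutrophils and eosinophils each summed to 10.3 CPM or less in both libraries. Of 6 dendritic cell markers 2 were higher in IL-4, and Itgax, which macrophages also express, held 3527 of their 3593.50 IL-4 counts. In bulk RNA, fewer cells of a type and less RNA per cell cannot be told apart.

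IL-4 binds a receptor whose IL-4Rα chain recruits JAK kinases, and these phosphorylate the transcription factor STAT6. STAT6 dimers enter the nucleus and bind palindromes in which the arms TTC and GAA stand 4 bases apart, whereas most other STAT dimers prefer a spacer of 3 bases. The macrophage program that follows is known for arginine metabolism, endocytic receptors and tissue repair. Families were left out here by symbol letters alone. Genes tied to the program therefore remain among the members, such as the receptors Tfrc and Olr1 and the regulator Pparg.

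The bases upstream of the members were read for both palindromes, since the ratio did not use sequence. A RefSeq promoter (build GRCm38.p6) was matched for 81 of 101 members, and the 250 bases before each start were searched. The palindrome with a spacer of 4 (TTC, then 4 bases of any kind, then GAA) was present in 18 of 81 members, which is 22.2%. The same motif was found in 6.76% of 27025 genes with a promoter, and in 5.41% of the 7738 other genes with at least 50 IL-4 counts. The palindrome with a spacer of 3 (TTCNNNGAA) was present in 15 of 81 members, or 18.5%, beside 8.13% of all genes and 7.11% of the other genes at that count. Each motif reads the same on both strands, and the windows of the 2 motifs can overlap. One or both were present in 30 members (37.0%, beside 14.2% of all genes), and Serpina3i, Sprr2a3 and Tlr8 held both. These shares count the Sprr2a copies separately. They also count Serpina3f, Serpina3g and Serpina3i separately, whose spacer-3 sites lie in related stretches. Such duplicated genes are not separate observations. Matches are letters in a window and no measure of STAT6 binding.

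The sites with a spacer of 4 are shown because the share of members that hold them was above that of all genes, each with the 15 bases on either side where the window reached, 5′ to 3′ on the strand of the gene. Capitals mark the motif.
Tmem26, chr10:68723690-68723729, plus strand: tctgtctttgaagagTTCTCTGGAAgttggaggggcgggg
Tmem26, chr10:68723504-68723543, plus strand: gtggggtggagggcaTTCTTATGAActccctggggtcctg
Plekhf1, chr7:38228089-38228128, minus strand: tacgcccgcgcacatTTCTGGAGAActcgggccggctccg
Patj, chr4:98410941-98410980, plus strand: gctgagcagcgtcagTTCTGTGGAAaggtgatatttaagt
Serpina3i, chr12:104263073-104263112, plus strand: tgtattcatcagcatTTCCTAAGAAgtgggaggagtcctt
Sprr2a1, chr3:92215616-92215655, plus strand: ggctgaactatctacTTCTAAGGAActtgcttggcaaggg
Hebp2, chr10:18546136-18546175, minus strand: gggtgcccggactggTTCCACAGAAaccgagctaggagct
Ralgds, chr2:28533258-28533297, plus strand: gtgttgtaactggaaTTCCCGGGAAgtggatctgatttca
Psmb10, chr8:105938435-105938474, minus strand: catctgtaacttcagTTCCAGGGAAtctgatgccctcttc
Ms4a7, chr19:11336147-11336174, minus strand: tgtaatcacgagtacTTCCGGGGAAagc
Tmem267, chr13:119487836-119487875, plus strand: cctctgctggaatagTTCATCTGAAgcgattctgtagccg
Tlr8, chrX:167264382-167264421, minus strand: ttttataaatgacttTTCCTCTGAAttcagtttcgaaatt
Tbxas1, chr6:38918850-38918889, plus strand: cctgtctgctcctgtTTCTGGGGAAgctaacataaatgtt
Tfec, chr6:16898617-16898656, minus strand: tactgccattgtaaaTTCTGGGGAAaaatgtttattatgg
Lair1, chr7:4063261-4063300, minus strand: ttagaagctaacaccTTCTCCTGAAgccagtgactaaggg
Abcb1a, chr5:8566902-8566941, plus strand: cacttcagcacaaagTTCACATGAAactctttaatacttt
Apol7c, chr15:77533363-77533402, minus strand: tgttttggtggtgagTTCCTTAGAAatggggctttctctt
Sprr2a2 (chr3:92250428-92250467) and Sprr2a3 (chr3:92285113-92285152), both on the plus strand, carry the same 40-base stretch as Sprr2a1, so that these copies are not separate observations. With the Sprr2a genes counted as 1, the share was 16 of 79, or 20.3%.

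Of the 19 sites, 9 began within 100 bases of the start. The nearest began 13 bases before it, in Ms4a7, and the farthest 235 bases before it, in Tmem267. Tmem26 was the member with a pair of sites, at 41 and 227 bases. The motif was spread over the range of ratios: 6 of the 18 members with a promoter among the 20 highest ratios held it. The median log2 ratio was 2.55 with the motif and 2.16 without. Both the 6 and the median with the motif count Sprr2a1, Sprr2a2 and Sprr2a3 separately, although these copies are not separate observations.

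A sequence with a spacer of 3 lies before 3 serpin genes in related surroundings, and before several of the members with the highest ratios. These are shown with capitals at the motif, for comparison with the list above.
Serpina3f, chr12:104214408-104214446, plus strand: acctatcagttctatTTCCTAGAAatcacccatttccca
Serpina3g, chr12:104236099-104236137, plus strand: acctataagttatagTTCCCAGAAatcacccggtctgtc
Serpina3i, chr12:104263005-104263043, plus strand: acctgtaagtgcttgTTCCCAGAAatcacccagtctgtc
Mrgprg, chr7:143767002-143767040, minus strand: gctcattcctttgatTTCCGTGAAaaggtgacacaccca
Batf3, chr1:191098164-191098198, plus strand: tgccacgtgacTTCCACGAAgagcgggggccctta
Rab15, chr12:76814045-76814083, minus strand: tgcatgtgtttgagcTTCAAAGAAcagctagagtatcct
Dab2, chr15:6299702-6299740, plus strand: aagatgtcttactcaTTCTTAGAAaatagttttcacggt
Among the other members with this spacer were Ceacam19, Ifi202b, Inpp5a, Mcf2l, Rasgrp1, Sprr2a3 and Tlr8.

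Other spacers gave smaller differences. A spacer of 2 bases was present in 12.3% of members and 8.11% of all genes, a spacer of 5 in 9.88% and 7.06%, and a spacer of 6 in 11.1% and 7.62%. A core promoter motif, TATAAA in the last 60 bases on the strand of the gene, was present in 1 of 81 members (1.23%). It was present in 3.44% of all genes and in 1.51% of the other genes with at least 50 IL-4 counts. The share with a spacer of 4 was also read by log2 ratio across genes with at least 50 counts in either library. It was 5.00% at log2 ratios under -1.5 (3 of 60), 5.35% between -0.5 and 0.5, and 7.44% between 0.5 and 1.5. It was 8.11% (3 of 37) in the risers that were set aside by symbol or transcript. Members had more promoter sequences per gene than all genes (a mean of 1.46 against 1.22). Among genes with a single one the shares were 23.3% of 60 members and 5.97% of 22862 genes. No promoter was matched for 20 members, among them Adhfe1, Ankrd55, Ccdc88c, Gpc1, Gvin1, Hbegf, Ifi204, Lrmp, Mgp, Ms4a6d, Mylk2, Pcyox1l, Pkp2, Plxdc2, Rwdd1, Scimp, Smap2 and Tbc1d16.

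**Figure D1:**
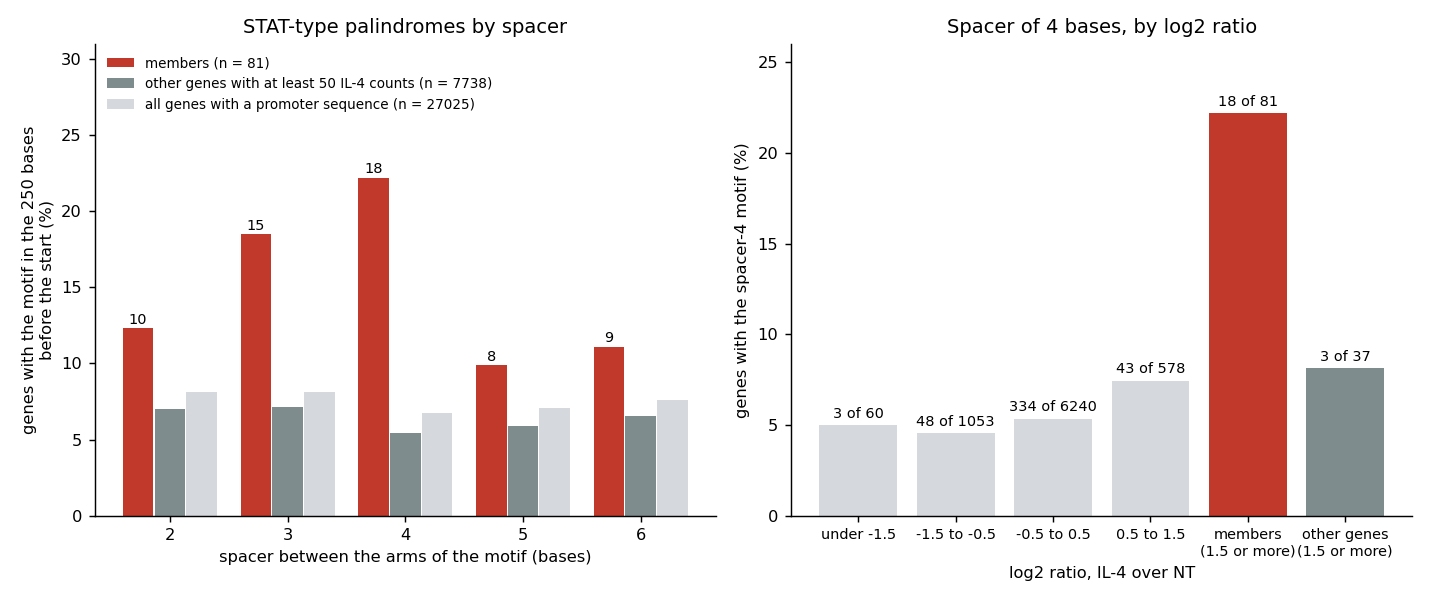
Left, the percent of genes with TTC and GAA arms in the 250 bases before the start, by spacer in bases, for members (red, number of members above the bar), other genes with at least 50 IL-4 counts and all genes with a promoter. Right, the percent with a spacer of 4 by log2 ratio of IL-4 over NT: 22.2% of members, and between 4.56% and 8.11% in every other class.

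Together the members rose from 45331 counts in NT, or 0.411% of the library, to 179381 in IL-4, or 1.59%. Their median log2 ratio was 2.16, while that of all tested genes was -0.01. A log2 ratio of at least 2 was reached by 60 members, of at least 3 by 27 and of at least 4 by 15. Starting levels differed widely: 6 members were not listed in NT, 40 were listed under 50 counts, 31 had 50 to under 500 and 24 had 500 or more. On the length-scaled FPKM scale, 2 members reached 100 in NT and 15 did so in IL-4. The lower bound of the counting interval was at or above 1.5 for 71 members and under it for 30.

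The limits passed through a continuum. Just inside the ratio limit were Ifi202b and Lrmp at 1.51, Ifi204 at 1.52, and AA467197 and Pparg at 1.54. Just outside it were Auh, Map2k6 and Prps1 at 1.49 and Selp and Dut at 1.48. Short of the count limit were Nkx6-2 with 47 IL-4 counts, Rbpms2 with 46, Pmepa1 with 45, Wwc1 with 44 and Hhat with 42. A filter by first letters also set aside genes unrelated to the families meant, among them Cdh1 (E-cadherin), which had 1 count in NT and 52 in IL-4.

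**Figure D2:**
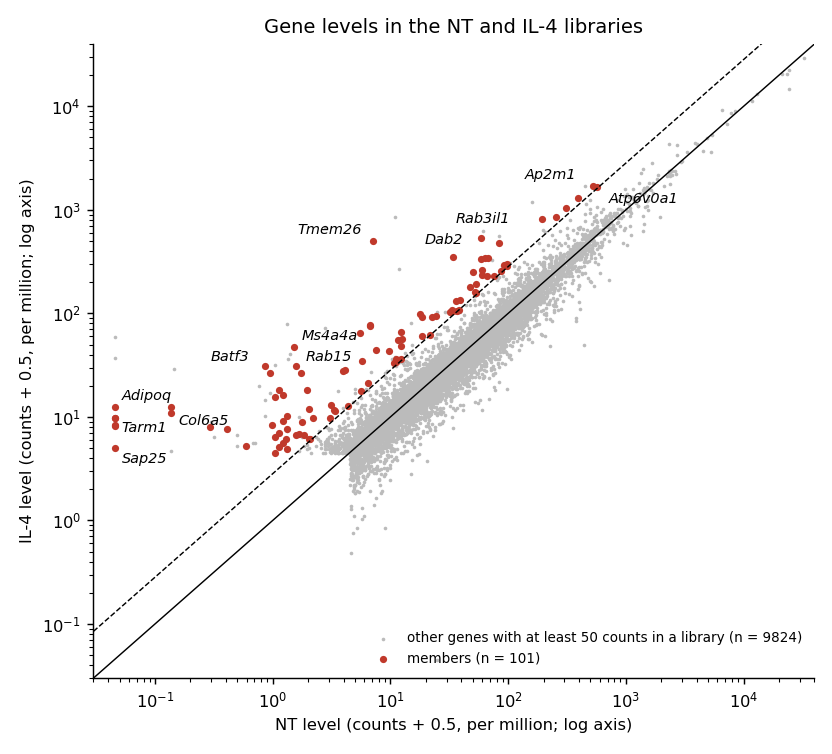
Level of each gene in the NT library (x axis) and the IL-4 library (y axis), as CPM with 0.5 count added on log axes, for the 101 members (red) and 9824 other genes with at least 50 counts in a library (grey). The solid line marks equal levels and the dashed line a log2 ratio of 1.5; the 6 members not listed in NT sit at the left edge.

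Secreted and matrix proteins made up 8 members, all with 73 counts or fewer in NT. Adipoq (chr16:23146536-23157968) encodes adiponectin, the hormone of fat cells, and went from not listed in NT to 139 counts in IL-4. Against the floor of 3 counts this was at least 45.5-fold higher. Col6a5, a chain of microfibrillar collagen VI, had 1 count in NT and 140.85 in IL-4, for a log2 ratio of 6.53 with a counting interval of 4.61 to 12.43. Spread over a long transcript, that was 1.33 FPKM. Hbegf, a membrane-tethered ligand of the EGF receptor, rose from 11 to 175 counts (log2 ratio 3.90). Olfm1, a secreted olfactomedin glycoprotein best known from the nervous system, rose from 73 to 864 counts (log2 ratio 3.53) and was the most highly expressed of the 8, at 29.6 FPKM in IL-4. Lipn, a lipase of the acid lipase family, rose from 43 to 315 counts. Angptl2, an angiopoietin-like protein, rose from 45 to 316 counts (log2 ratio 2.77), while its relatives Angptl6 and Angptl4 had log2 ratios of 0.52 and -0.55. Mgp, the matrix Gla protein that restrains calcification, had 19 counts in NT and 101 in IL-4. Timp1, an inhibitor of matrix metalloproteinases, had 12 and 57, and its interval of 1.31 to 3.25 reached below the limit.

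Of 6 markers of fat cells, which include Adipoq, Plin1, Lep, Cfd and Cidec were not listed in either library. Fabp4, which macrophages share with fat cells, had 4103 counts in NT and 4994 in IL-4. Of 16 adipocyte genes, 9 were listed and 7 could be tested against the limits. Adipoq and Pparg passed upward and none downward, beside 1.55% and 0.836% of all tested genes. The other tested ones lay between a log2 ratio of -0.69 for Lpl and 0.37 for Cebpa. Rbp4, short of the count limit, had 0 counts in NT and 32 in IL-4. The part of fat cells in these values was not tested. Pparg, the nuclear receptor that directs fat cell formation and is also expressed in macrophages, rose from 1077 to 3192 counts.

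Serpins of the Serpina3 cluster, serine protease inhibitors related to antichymotrypsin that are duplicated in the mouse, rose from near the floor. Serpina3f had 2.73 counts in NT and 88.59 in IL-4, a log2 ratio of 4.76 with an interval of 3.27 to 7.17. Serpina3g, which inhibits lysosomal cathepsins in leukocytes, was the most abundant of the 4 members in IL-4, with 18.51 counts in NT and 296.85 in IL-4. Serpina3n had 10.38 and 93.16 counts, and Serpina3i 12.87 and 101.60. Serpina3h, set aside because its transcript is noncoding, had 14.52 and 405.73 counts, a log2 ratio of 4.73. All 5 cluster genes with at least 50 counts passed the limit, beside 1.55% of all genes at that count. They reached 50 counts through IL-4 alone, so their passing was largely fixed in advance. Below that count, Serpina3k and Serpina3c had log2 ratios of 0.65 and 0.55, and Serpina3m had 0 counts in NT and 8 in IL-4. Of the pairs among the 4 members, those at or above 5% share between 5.24% and 16.2% of their 31-base words, so the split of reads among them is uncertain. Serpina3f, Serpina3g and Serpina3i lie in this order on chromosome 12, 15018 and 21106 bases apart, with no coding gene between them. The noncoding Serpina3h lies between Serpina3g and Serpina3i. Serpina3f, Serpina3g and Serpina3i carry the related upstream stretch printed above.

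Proteins of epithelial structure were 8 members, and none exceeded 20 counts in NT. The Sprr2a genes encode small proline-rich proteins that are cross-linked into the cornified envelope of the skin. Sprr2a1 and Sprr2a2 were not listed in NT and had 109.64 counts each in IL-4, at least 35.8-fold higher than the floor. Sprr2a3 had 1 and 122.73 counts, a log2 ratio of 6.33 (interval 4.41 to 12.23). Sprr2a1 shares 93.8% of its words with Sprr2a2, so the reads cannot be placed in any one copy. Of 27 cornified envelope genes 10 were listed and 4 could be tested. These 3 passed upward and none downward, beside 1.55% and 0.836% of all tested genes. The 3 reached 50 counts through IL-4 alone, so their passing was largely fixed in advance, and as copies they are not separate observations. Sprr1a, short of the count limit, had 5 and 28 counts.

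The remaining epithelial members concern junctions and keratin filaments. Patj, a scaffold of the Crumbs complex at tight junctions, rose from 13 to 182 counts (log2 ratio 3.73). Krt8 and Krt18, which pair into the keratin filaments of simple epithelia and lie 23.9 kb apart on chromosome 15, rose from 20 to 74 and from 12 to 79 counts. Kazn, a junction protein, had 11 and 71 counts, and Pkp2, a desmosomal plakophilin, had 11 and 50. Levels were low on the length scale, between 1.53 FPKM for Pkp2 and 13.13 FPKM for Sprr2a3 in IL-4. All 4 markers of epithelial cells were higher in IL-4, summing to 33 counts in NT and 206 in IL-4. Of these, Krt8 and Krt18 are members themselves. Cdh1, with 1 count in NT and 52 in IL-4, passed both limits and was set aside by symbol. The rise of Krt8, Krt18 and Cdh1 is thus no observation apart from the choice by ratio. Epcam, the defining surface marker of epithelial cells, had 0 counts in NT and 1 in IL-4. Mesothelial markers summed to 114 counts in NT and 99 in IL-4. The part of other cells in these values was not tested.

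Surface receptors and transport proteins were the largest group, with 21 members. Tmem26 (chr10:68723746-68782655), a multipass membrane protein used as a marker of beige fat cells, combined a steep rise with a high level. It had 78 counts in NT and 5583 in IL-4, a log2 ratio of 6.12 with an interval of 5.81 to 6.48, and reached 95.76 FPKM from 1.36. Tarm1, an activating myeloid receptor that engages T cells, was not listed in NT and had 93 counts in IL-4, at least 30.4-fold higher than the floor. Mrgprg, an orphan receptor of the Mas-related family, was likewise not listed in NT and had 91 counts, at least 29.8-fold higher.

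Genes of the Ms4a family, which encode membrane proteins with 4 spans, moved unequally. Ms4a4a rose from 16.31 to 530.88 counts (log2 ratio 4.95, interval 4.31 to 5.84). Ms4a7, next to it on chromosome 19 with no coding gene between, rose from 559 to 2814 counts, and Ms4a6d from 1084.71 to 3363.78. In the same cluster Ms4a6c and Ms4a8a had log2 ratios of 0.99 and 0.55 and were not members. On the length scale Ms4a6d remained the highest in IL-4 at 215.07 FPKM, ahead of Ms4a7 at 189.07 and Ms4a4a at 48.27.

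Adhesion and guidance receptors formed another subgroup. Plxdc2, a plexin-domain membrane protein, rose from 63 to 386 counts (log2 ratio 2.58). Ceacam19, a relative of carcinoembryonic antigen, rose from 197.08 to 1115 counts (2.47). Sema4b, a class 4 semaphorin, rose from 204.41 to 1042.75 (2.32). Both heparan sulfate proteoglycans of the set rose: Sdc4, a syndecan, from 249.52 to 1045.92 counts, and Gpc1, a glypican, from 398 to 1486. The other measured syndecans went the other way, Sdc1 at a log2 ratio of -0.58 and Sdc3 at -0.79. Lair1, an inhibitory receptor for collagens, rose from 589 to 1773 counts.

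Receptors for ligands and cargo included several of the most abundant members. Tfrc, the transferrin receptor that brings iron into cells, rose from 2148 to 9144 counts (log2 ratio 2.06) and reached 163.36 FPKM. Tlr8, an endosomal Toll-like receptor, rose from 2824 to 9692 counts and reached 175.47 FPKM. Olr1, the receptor LOX-1 for oxidized LDL, rose from 22 to 133 counts. Raet1d, a ligand of the NK cell receptor NKG2D, had 13.71 and 68.77 counts and shares 67.1% of its words with Raet1e. The summed counts of those copies gave a log2 ratio of 2.03.

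A pair of prostanoid receptors that raise cyclic AMP were members. Ptger2, the EP2 receptor for prostaglandin E2, rose from 70 to 239 counts, and Ptgir, the prostacyclin receptor, from 844 to 2592. Ptger4, the EP4 receptor for prostaglandin E2 that also raises cyclic AMP, had 120 and 92 counts (log2 ratio -0.41), and Ptger1 had a log2 ratio of -0.58. In a wider list of 38 receptors for nucleosides, lipids and peptides, 19 could be tested. Ptger2 and Ptgir passed upward and 2 passed downward, beside 1.55% and 0.836% of all tested genes.

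Channels and pumps closed the group. Clic4, a chloride intracellular channel protein, rose from 3406 to 11736 counts and reached 254.16 FPKM. Aqp9, a channel for water and glycerol, had 14 and 54 counts with an interval of 1.05 to 2.88. Abcb1a, the drug efflux pump P-glycoprotein, had 61.33 counts in NT and 197.61 in IL-4. Its neighbour Abcb1b, with which it shares 21.7% of its words, had 432.17 and 252.34, and the summed counts of the pair gave a log2 ratio of -0.16.

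**Figure D3:**
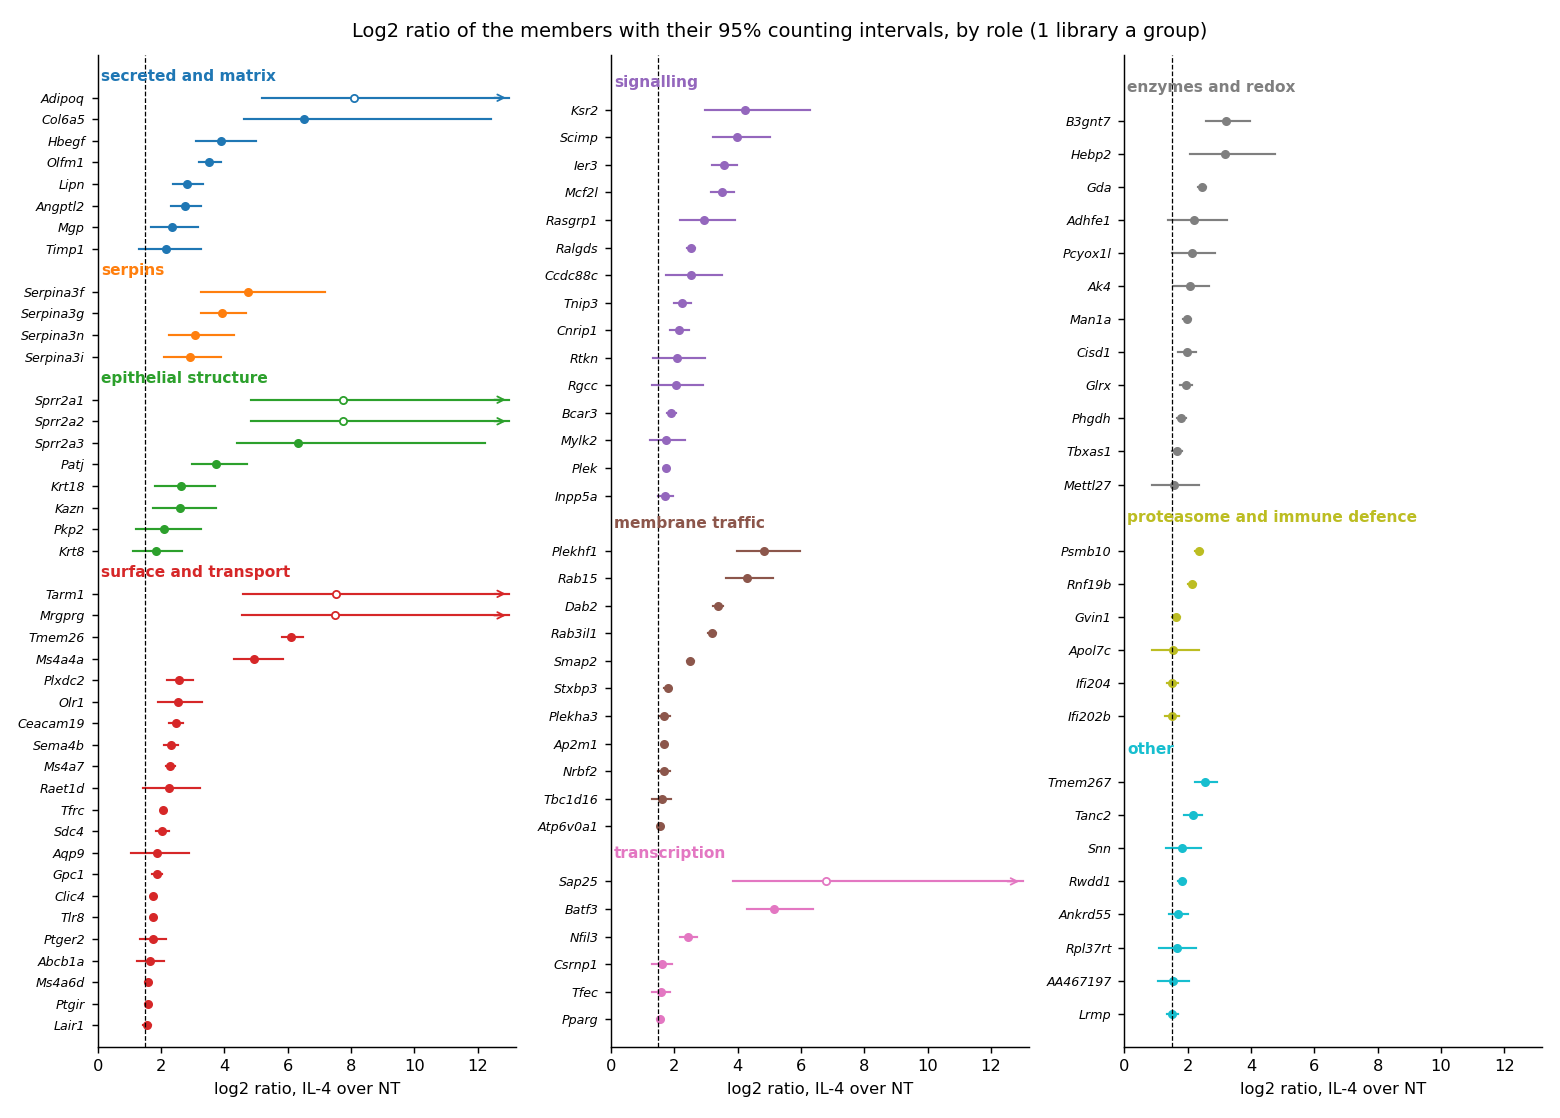
Log2 ratio of IL-4 over NT (x axis) of 99 of the 101 members, by role, with its 95% counting interval; the dashed line is the limit of 1.5. Open circles with arrows are the 6 members not listed in NT, whose plotted ratio depends on the added 0.5 count, and the intervals are shortest for abundant genes such as Ap2m1 (1.65 to 1.73).

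Signalling proteins were 15 members, and exchange factors and scaffolds led them. Ksr2, a scaffold of the Raf, MEK and ERK kinases, rose from 4 to 85 counts (log2 ratio 4.22, interval 2.97 to 6.29) but remained at 1.22 FPKM. Scimp, a transmembrane adaptor of antigen-presenting cells that binds the kinase Lyn, rose from 12 to 202 counts (3.99). Ier3, an early response gene linked to cell survival, rose from 60 to 728 (3.56).

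Exchange factors for small GTPases were among the members. Mcf2l, a factor of the Dbl type, rose from 73 to 852 counts (log2 ratio 3.51). Rasgrp1, which activates Ras in response to diacylglycerol, had 14 and 113.43 counts. Ralgds, which activates Ral downstream of Ras, rose from 645 to 3811 counts and reached 92.14 FPKM. In a list of 24 Ras and Rap exchange factors and RasGAPs, which does not hold Mcf2l or Ralgds, 18 could be tested. Rasgrp1 alone passed upward and 1 passed downward, beside 1.55% and 0.836% of all tested genes. The median log2 ratio of the tested list was -0.40.

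Among the adaptors, Bcar3, a partner of the docking protein p130Cas, rose from 527 to 2006 counts. Plek, the protein kinase C substrate pleckstrin, was the most abundant of the signalling members, with 4351.46 counts in NT and 14716.57 in IL-4, at 314.65 FPKM. Cnrip1, named for its binding to the cannabinoid receptor CB1, rose from 107 to 486 counts. Plek and Cnrip1 are adjacent on chromosome 11 and overlap by 199 exonic bases on opposite strands, and whether the counting used strand is not given in the sources used here. Tnip3, which binds the NF-kB inhibitor A20, rose from 128 to 623 counts.

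The others of this group were near or below 200 counts in NT. Inpp5a, a phosphatase that ends the inositol trisphosphate signal, rose from 204 to 682 counts. Ccdc88c, a Dishevelled-binding protein, had 14 and 85 counts and, at 1.19 FPKM, was the lowest member in IL-4 on the length scale. Rgcc, a regulator of the cell cycle, had 18 and 77, and Mylk2, a myosin light chain kinase, had 37.09 and 128.23. Rtkn, a GTPase effector, had 17 and 75 counts, and 41.6% of its exonic bases overlap Wdr54 on the opposite strand (5 and 7 counts). A list of 34 tested SH2 adaptors and tyrosine kinases had 1 gene past the limit in each direction, beside 1.55% upward and 0.836% downward of all tested genes. The upward one, Fyn, was set aside by its first letter.

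Membrane traffic was the role of 11 members and held the most abundant ones. Ap2m1 (chr16:20535480-20544909), the cargo-binding mu subunit of the AP2 clathrin adaptor, had 5819.30 counts in NT and 19127.12 in IL-4. Its 575.59 FPKM was the highest level of any member, from 178.68 in NT. The 4 other AP2 subunits did not share its ratio of 1.69: their log2 ratios lay between -0.22 for Ap2b1 and 0.79 for Ap2a2. Atp6v0a1 (chr11:101009422-101063719), a membrane subunit of the proton pump that acidifies endosomes and lysosomes, rose from 6335 to 18821 counts (log2 ratio 1.54). The other 15 tested V-ATPase subunits lay between -0.13 and 0.84, with Atp6v0d2 the highest, and the a subunit Tcirg1 was at -0.08. So in both complexes a single subunit passed the limit.

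Endosomal proteins gave the steepest rises in traffic. Plekhf1, a protein with a PH and a FYVE domain on endosomes and lysosomes, rose from 10 to 301 counts (log2 ratio 4.82, interval 3.98 to 5.96). Rab15, a small GTPase of early and recycling endosomes, rose from 17 to 348 (4.29). Dab2, a clathrin adaptor for lipoprotein receptors and integrins, rose from 375 to 3985 counts (3.38, interval 3.23 to 3.54). Rab3il1, which interacts with Rab3 GTPases, rose from 652 to 6042 counts (3.18) and reached 230.84 FPKM. Smap2, a GTPase-activating protein for Arf, rose from 930 to 5377 counts (2.50).

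Among the other traffic members, Stxbp3, which binds syntaxins in exocytosis, rose from 736.30 to 2597.71 counts. Plekha3, a Golgi phosphoinositide-binding protein, rose from 366 to 1209, and Nrbf2, a subunit of the autophagy PI3-kinase complex, from 352 to 1148. Tbc1d16, a GTPase-activating protein for Rab, rose from 123 to 381, with an interval of 1.31 to 1.91.

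Transcription regulators were 7 members, and Batf3 stood above the rest among those listed in NT. Batf3 (chr1:191098414-191108943), a basic leucine zipper factor known for cross-presenting dendritic cells, rose from 9 to 345 counts (log2 ratio 5.16, interval 4.29 to 6.37) and from 1.19 to 44.56 FPKM. Its relatives Batf and Batf2 had log2 ratios of 0.61 and 0.48. Of the 6 dendritic cell markers, Xcr1, Clec9a, Flt3 and Ccr7 had 14.50, 0, 1 and 39 counts in IL-4, against 15.83, 4, 1 and 41 in NT. Itgax had 3527 against 2003 in NT, and Zbtb46 had 12 against 9. The part of dendritic cells in the Batf3 counts was not tested. Nfil3, another basic leucine zipper factor, rose from 136 to 749 counts (2.43). Sap25, of the Sin3 corepressor complex, was not listed in NT and had 55.54 counts in IL-4, at least 18.2-fold higher than the floor.

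The other transcription regulators among the members had smaller ratios. Pparg, described above, rose to 142.3 FPKM from 47.89. Tfec, the MiT family member expressed mainly in macrophages, rose from 135 to 409 counts (1.57), while Mitf, Tfeb and Tfe3 had ratios of 0.51, 0.43 and -0.08. Csrnp1, a nuclear protein induced by Axin, rose from 119 to 369. Of 39 regulators listed for IL-4 macrophage and dendritic cell programs, 27 could be tested. 5 passed upward, among them Batf3, Nfil3, Tfec and Pparg, and none passed downward, beside 1.55% and 0.836% of all tested genes. The median log2 ratio was 0.39 over the tested list.

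Enzymes and redox proteins were 13 members. Gda, the guanine deaminase of purine breakdown, rose from 699.75 to 3896.56 counts (log2 ratio 2.45) and reached 63.18 FPKM. Ak4, an adenylate kinase of the mitochondrial matrix that balances adenine nucleotides, rose from 34 to 146 counts. Its relatives Ak3, Ak6 and Ak8 had log2 ratios of 0.53, 0.33 and 0.61. Phgdh, the first enzyme of serine synthesis, rose from 426 to 1517 counts. Cisd1 (mitoNEET), an iron-sulfur protein of the outer mitochondrial membrane, rose from 136 to 543, and Glrx, the glutaredoxin that reduces glutathionylated proteins, from 270 to 1056.

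Sugar- and lipid-modifying enzymes were also present. B3gnt7, a glycosyltransferase, rose from 21 to 202 counts (log2 ratio 3.21) and Man1a, a Golgi mannosidase of N-glycan trimming, from 662 to 2657. Tbxas1, thromboxane synthase, rose from 372 to 1196. Hebp2, a heme-binding protein, had 6 and 59 counts with an interval of 2.06 to 4.77. Low counts limited the rest: Adhfe1, an alcohol dehydrogenase, had 13 and 63, Pcyox1l, a relative of prenylcysteine oxidase, 24 and 109, and Mettl27, a methyltransferase-like protein, 22 and 68. In a list of 39 enzymes reported in IL-4-treated macrophages, 27 could be tested. Gda and Ak4 passed upward and none passed downward, beside 1.55% and 0.836% of all tested genes.

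Proteasome and immune defence proteins were 6 members. Psmb10, the catalytic beta subunit that replaces a constitutive one in the immunoproteasome, rose from 746 to 3879 counts (log2 ratio 2.35, interval 2.24 to 2.47) and reached 274.36 FPKM. The 9 other tested beta subunits lay between 0.01 and 0.78, and these included its immunoproteasome partners Psmb9 at 0.78 and Psmb8 at 0.22. Rnf19b, a ubiquitin ligase, rose from 661 to 2967 counts.

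Interferon-linked families were split as well. Ifi204 and Ifi202b, DNA-binding proteins of the Ifi200 cluster, rose from 402.35 to 1179.28 and from 238 to 691 counts, while 7 other tested genes of the cluster lay between -0.30 for Aim2 and 1.43 for Ifi211. The next below it was Ifi205 at 0.51. Ifi211 holds 18.9% of the words of Ifi204, and Mndal, Ifi207 and Ifi205 hold 8.35%, 6.88% and 6.43%. The summed counts of Ifi204 and Ifi211 were 572.72 in NT and 1648.27 in IL-4, close to the limit. Summed with Ifi205, Mndal or Ifi207, Ifi204 gave log2 ratios of 1.46, 1.13 and 0.33, all under it. Gvin1, a very large interferon-inducible GTPase, had 571.40 and 1802.57 counts, but nearly all of its words are also in Gm4070. The summed counts of Gvin1 and Gm4070 gave a log2 ratio of 1.30, under the limit. Apol7c, an apolipoprotein L, had 22.44 and 67.83 counts, and its summed counts gave a log2 ratio of 1.58 with Apol7e and 1.21 with Apol7b, which hold 8.31% and 6.90% of its words.

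**Figure D4:**
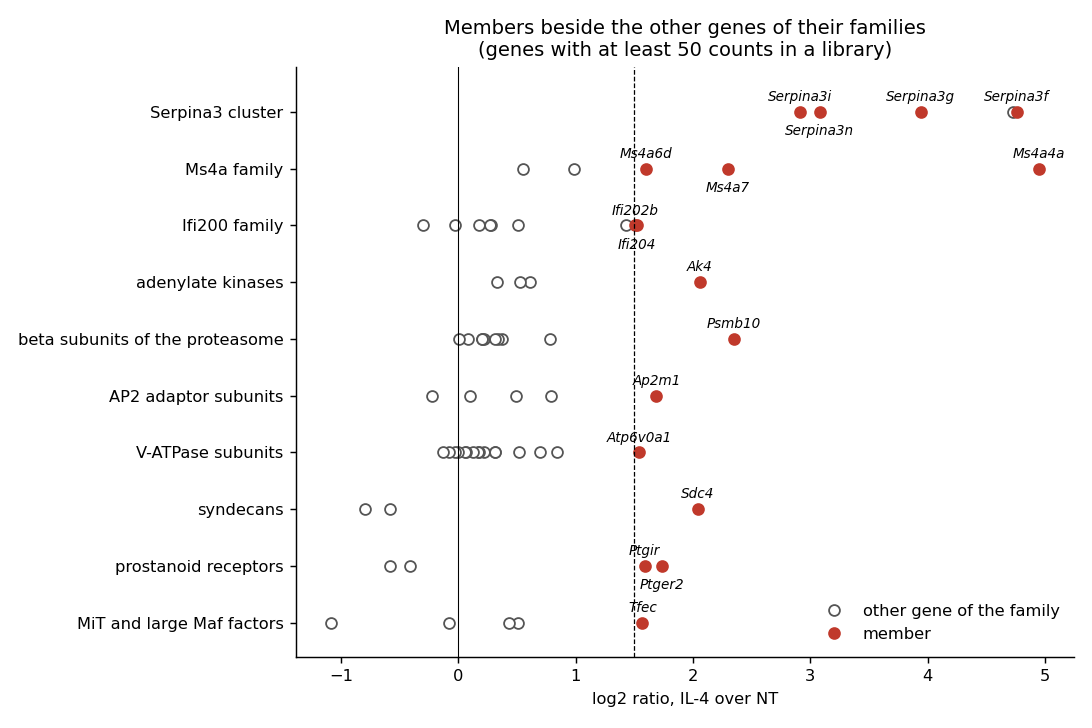
Log2 ratio of IL-4 over NT (x axis) of members (red, 2 left out) and the other genes (open circles) of 10 families with at least 50 counts in a library; the dashed line is the limit of 1.5. The Serpina3 genes drawn, which reached 50 counts in IL-4 alone, all lie to the right of it. Psmb10, Ap2m1, Atp6v0a1 and Sdc4 are each the only drawn gene of their family past it.

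The last 8 members have no common role. Rwdd1 was the most abundant of them, with 592 counts in NT and 2138 in IL-4, at 178.41 FPKM. Tmem267, a transmembrane protein, rose from 82 to 496 counts (log2 ratio 2.56), and Tanc2, a large scaffold protein of synapses, from 138 to 630 (2.16). Lrmp, an endoplasmic reticulum protein of lymphoid cells, rose from 420 to 1221 and Ankrd55 from 123 to 409. Snn (stannin) had 36 and 132 counts, and AA467197 had 48 and 143. Rpl37rt, a retrotransposed copy of a ribosomal protein gene, had 33.59 and 110.19 counts and shares 39.4% of its words with Rpl37. The summed counts of Rpl37rt and Rpl37 gave a log2 ratio of 0.15.

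Read sharing was measured over the set. Fractional counts, which arise when RSEM divides reads, were present in 27 members, and 13 members share at least 5% of their 31-base words with another listed gene. By position, 11 pairs of members lie within 200 kb of each other, made up of 18 genes, and 8 of those pairs have no coding gene between them. These are mostly duplicated families (Serpina3, Sprr2a, Ms4a and the keratins), while Plek and Cnrip1 are a pair of unrelated genes. RefSeq coordinates are those of GRCm38. Members had a median length of 2532 bases, beside 2882 bases for all tested genes.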

How the data were processed

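RNA of 1 NT and 1 IL-4 library was purified on RNeasy columns and sequenced at BGI on an Illumina HiSeq. The authors mapped reads to GRCm38/mm10 with Bowtie and deposited RSEM expected counts per gene, which need not be whole because reads shared by transcripts are divided. The authors also deposited FPKM values, scaled for transcript length and depth, and per the file headers a transcript-weighted gene length in bases. The versions of Bowtie and RSEM and the use of strand are not given in the sources used here. Groups were taken from the sample titles. A gene absent from a table was set to 0, and its detection floor to 3 counts.

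Tables were joined by NCBI gene number, and 15587 of 15623 genes were matched to a symbol in a RefSeq table for GRCm38. Log2 ratios used counts plus 0.5 over the table total (Python 3.11.15, pandas 2.3.3), and exact 95% intervals used scipy 1.17.1. Levels of different genes were compared in FPKM alone. Promoter bases came from RefSeq. Shared words of 31 bases and exon overlaps were taken from GENCODE M21 transcripts. The member search was tested on simulated data. The members, the gene lists, the roles and the families were chosen with earlier results of these data known, and roles and families after the members were known. A gene list or family was tested against the limits where a gene had at least 50 counts in a library. Of all 9925 genes tested in this way, 1.55% passed upward and 0.836% downward. A gene under 50 counts in NT entered such a count only through IL-4, which favoured its passing upward.

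Values of 2 members and a promoter stretch are not reported here, and every other member is named. Those given most detail are the 20 highest by ratio, by IL-4 count or by IL-4 FPKM, those in a gene list, at the limits, not listed in NT, with a spacer-4 palindrome, or next to or copying each other; the others are named for their role. One list of 14 RNase A genes (0 of 1 tested passed), one of 19 RGS proteins (0 of 7 passed in either direction) and one of 29 cytoskeleton and fusion genes (24 tested, Rab15 and Cdh1 past the limit upward and 2 downward) held at most 1 member. Alternatives were TMM (edgeR 4.0.16) and median-of-ratios (DESeq2 1.42.0) scaling, a total that leaves out the top 100 genes by abundance, an added constant of 5 counts, FPKM plus 0.1 or plus 1, other limits on counts and ratio, genes with whole counts alone and a correction for transcript length.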

Additional observations from a re-analysis of the deposited data

How the results depend on the processing

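The number of members was 724 with no filter on counts and 60 with the ratio limit moved to 2, beside 101 as reported. It lay between 71 and 109 under the other 10 alternatives (TMM and median-of-ratios scaling gave 109 and 108). With FPKM plus 1 it was 72, and the median log2 ratio of the 101 members fell to 1.74 from 2.16, since that constant shrinks genes of low level. Subtracting the trend with transcript length, which ran from a median log2 ratio of 0.18 in the shortest 10% of genes to -0.44 in the longest 10%, kept 92 members and put AA467197, Apol7c, Ifi202b, Ifi204, Lrmp, Ms4a6d, Pparg, Rpl37rt and Tfec under the limit. No member changed sign under any scaling, constant or length alternative, which the choice of members by their ratio had largely fixed in advance. The share of promoters with a spacer-4 palindrome, 22.2%, was 37.0% when either spacer of 3 or 4 was accepted, and the shares for spacers of 2, 5 and 6, chosen after seeing the data, were 12.3%, 9.88% and 11.1%. No paired analysis was possible because NT and IL-4 hold 1 library each, and for the same reason no replicate could be left out. Intervals are wide for the 40 members listed under 50 counts in NT.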

Other observations

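The transcript-weighted length that RSEM gives for a gene changes between libraries when its isoforms are weighted differently. Among the members with more than 1 transcript, 7 changed by more than 1 percent. Patj had 7128 bases in NT and 6436 in IL-4 (-9.70 percent), Ankrd55 2624 and 2418 (-7.86 percent), and Rtkn 2666 and 2461 (-7.71 percent). Longer in IL-4 were Tmem267, at 1275 and 1406 bases (10.3 percent), and Olfm1, at 2407 and 2583 (7.31 percent). Pparg had 2038 and 1994 bases (-2.17 percent) and Adhfe1 3098 and 3139 (1.32 percent). NT counts behind these lengths were as low as 13 in Patj and Adhfe1 and 17 in Rtkn, and the differences have no replicate check.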
